A study of Mus musculus and Macaca mulatta with 39 samples.

Results

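The clustered protocadherin genes lie side by side on mouse chromosome 18 as an alpha, a beta and a gamma subcluster. All called regions of the 16 mouse lists that reach into chr18:37050001-38010000 (mm9) were taken, an interval of 960 kb. It holds 462 of the 921935 regions in those lists, 211 of them for H3K27ac and 251 for H3K4me2. By the position of the region's centre, 106 fell in the alpha part (chr18:37050001-37390000), 17 in the beta part (chr18:37390001-37650000) and 329 in the gamma part (chr18:37650001-38010000), and the remaining ones straddled the right edge with their centre beyond it. These bounds are approximate. They were not checked against an mm9 annotation, so the last beta genes may lie to the right of the beta bound, and no region is assigned to a gene below.

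Clustered protocadherins are cell adhesion molecules of the neuronal surface, and the set of isoforms that a neuron makes lets its branches tell self from non-self. In the alpha and gamma subclusters a row of variable exons, each with a promoter of its own, is spliced to constant exons shared by the whole subcluster, whereas each beta gene is a single exon. Neurons use a few of the variable promoters each, chosen largely at random, so that a piece of cortex holds many promoters that are active in only some of its cells. H3K27ac marks active promoters and enhancers, and H3K4me2 marks promoters and enhancers whether active or poised. In the RefSeq table for GRCm38.p6 the alpha family has 14 genes from Pcdha1 to Pcdhac2, 2 of them of the C type. The beta family has 22 genes from Pcdhb1 to Pcdhb22. The gamma family has 22 genes from Pcdhga1 to Pcdhgc5, made up of 12 A, 7 B (1 of them a pseudogene) and 3 C genes. In that table Slc25a2 and Taf7 stand between the beta and the gamma family, and Diaph1, Hdac3, Rell2 and Fchsd1 follow Pcdhgc5.

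The mouse samples were cortex of C57BL6J embryos at embryonic day (E) 11.5, E14.5 and E17.5, the last as separate frontal and occipital pieces. Each of these 4 tissues had 2 biological replicates per the series' design text, each replicate with an H3K27ac and an H3K4me2 precipitation, so that 8 lists of each mark were compared. No treatment or genetic change is named for any group. The sources used here do not give how many embryos made up a replicate, and the cell makeup of the pieces was not checked, since the lists hold no gene levels. The tissue is a mixture of cells, so a mark in more cells and a stronger mark in each cell cannot be told apart, and the labels give no area for the cortex of E11.5 and E14.5.

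A list holds positions only, so the measure is the length in bp that its regions cover, and the read depth is unknown. An uncovered stretch is one where no region was called, which does not show that the mark was absent. The lists covered 63.1 to 169 Mb of the genome for H3K27ac (median 137 Mb, 47631 to 87236 regions) and 65.3 to 162 Mb for H3K4me2 (median 100.02 Mb, 32366 to 76833 regions). H3K27ac lists were larger at later stages, with a mean of 74.2 ± 15.7 Mb (SD, n = 2) at E11.5 and 155 ± 17.7 Mb (n = 4) at E17.5. The corresponding H3K4me2 lists covered 90.5 ± 29.9 Mb and 117 ± 31.3 Mb. The part of list size in the differences between stages was not tested, and values scaled to the list totals are given for the sums per subcluster.

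**Figure D1:**
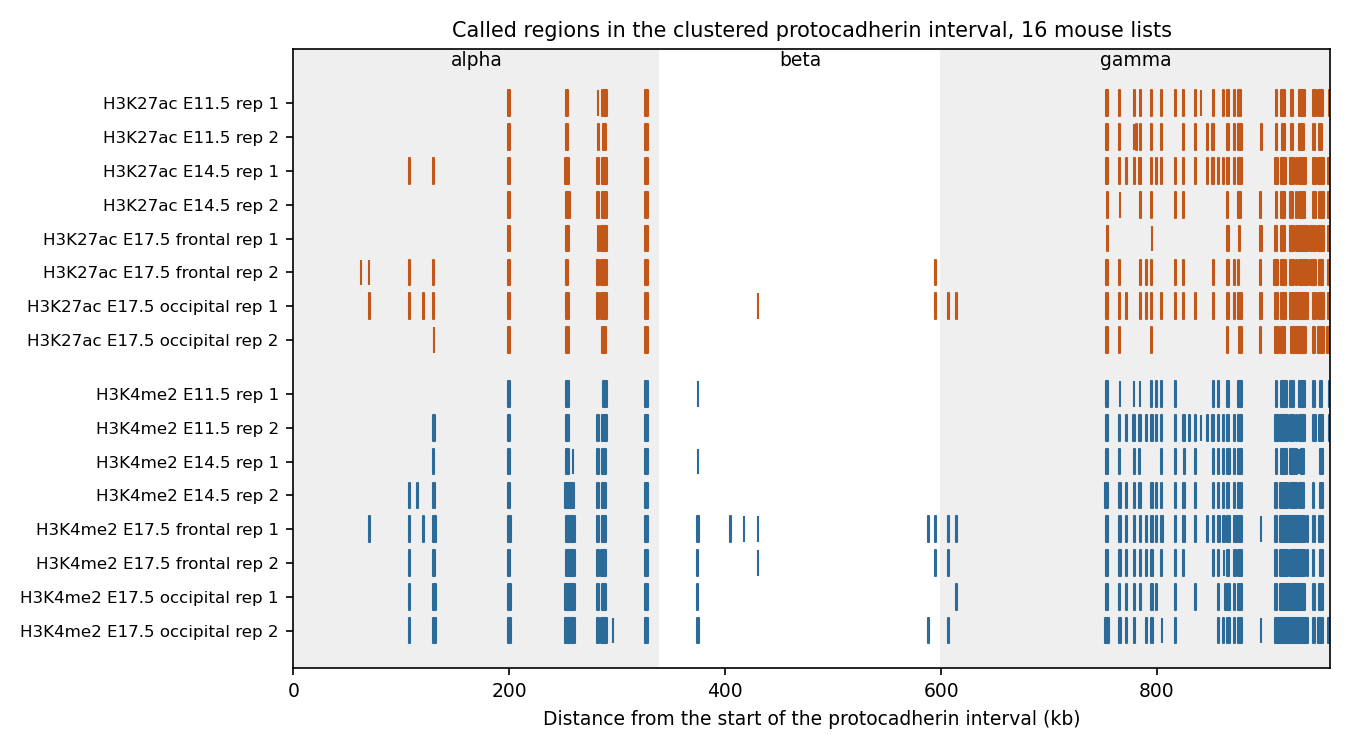
Called regions of the 16 mouse lists across the protocadherin interval, plotted against the distance in kb from its start. Each row is 1 list, coloured by mark, bars are regions, and the background shading marks the subclusters. Regions of both marks crowd the last part of the gamma subcluster, and the beta subcluster is nearly empty in every row.

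Coverage was very unequal over the 3 subclusters and had the same order in every list. H3K27ac regions covered 3.93 ± 0.860% of the alpha part, 0.0950 ± 0.187% of the beta part and 10.8 ± 1.95% of the gamma part (mean ± SD over 8 lists). H3K4me2 regions covered 5.63 ± 1.77%, 0.535 ± 0.655% and 13.9 ± 2.99%. Within lists, the gamma part exceeded the beta part by 10.7 ± 1.83 percentage points for H3K27ac and by 13.4 ± 2.67 points for H3K4me2. The alpha part exceeded the beta part by 3.84 ± 0.756 and 5.09 ± 1.49 points, and the alpha minus gamma difference was -6.87 ± 1.40 and -8.31 ± 1.96 points. Each of these differences had the same sign in 8 of 8 lists (exact two-sided permutation over sign changes, p = 0.0078, Benjamini-Hochberg adjusted p = 0.0078 over 8 tests, the smallest p that 8 lists allow).

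The interval as a whole was covered less than its surroundings. Over the 480 kb on either side, H3K27ac regions covered 13.9 ± 4.03% and H3K4me2 regions 11.9 ± 2.51%, against 5.47 ± 1.02% and 7.37 ± 1.76% within the interval. The difference was -8.41 ± 3.40 points for H3K27ac and -4.55 ± 1.49 points for H3K4me2, and it was negative in 8 of 8 lists of each mark (exact permutation, p = 0.0078, adjusted p = 0.0078). By side, H3K27ac regions covered 5.61 ± 0.699% of the left flank and 22.2 ± 7.44% of the right flank. H3K4me2 regions covered 8.48 ± 1.20% and 15.3 ± 3.86%. The interval exceeded the left flank in H3K27ac of E14.5 replicate 1, frontal replicate 2 and occipital replicate 1. It also did so in H3K4me2 of frontal replicate 1. The sides were not tested separately. The flanks hold other genes, among them Hars, Hars2 and Zmat2 before Pcdha1 in the RefSeq order. The longest stretches without a region in any of the 16 lists were chr18:37480801-37637500 (156.7 kb, in the beta part) and chr18:37664826-37801975 (137.15 kb, in the gamma part).

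**Figure D2:**
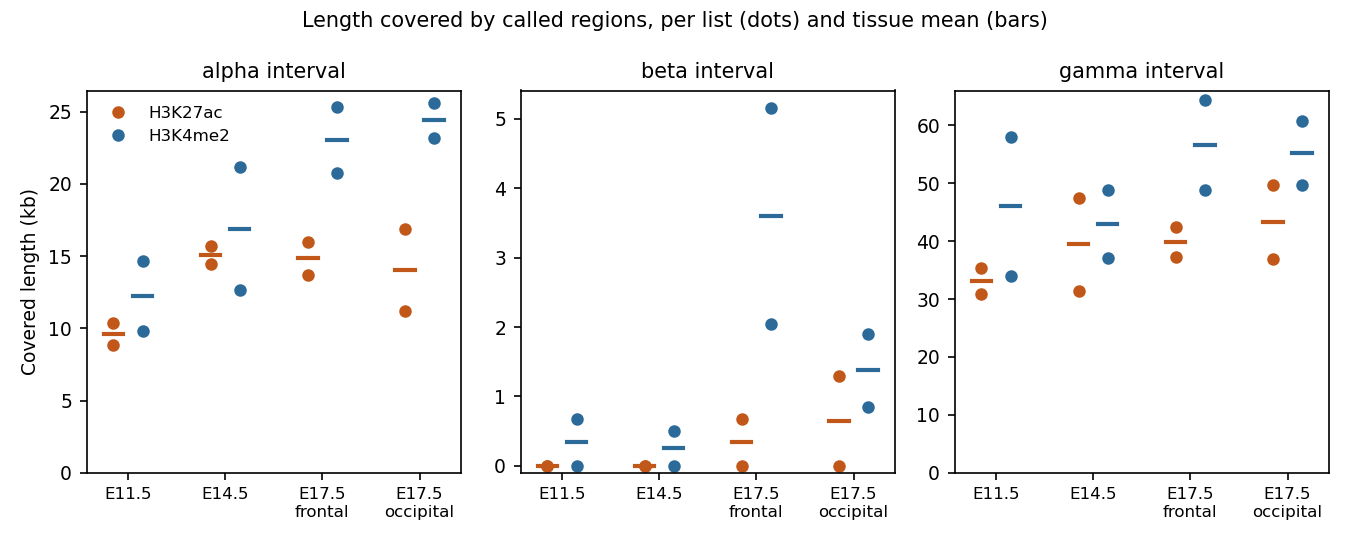
Covered length in kb of the alpha, beta and gamma parts in each of the 8 lists per mark, with 1 point per list grouped by tissue. The gamma values lie above the alpha values and the alpha values above the beta values in every list, and in the alpha part the E17.5 points lie above the E11.5 points for both marks.

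In the alpha part, H3K27ac regions covered 10350 and 8825 bp in the 2 E11.5 lists and 15675 and 14425 bp in the E14.5 lists. They covered 13700 and 15975 bp in the frontal and 16850 and 11225 bp in the occipital E17.5 lists. All E17.5 values lay above both E11.5 values, by 4850 bp on average (exact two-sided permutation, p = 0.133, adjusted p = 0.2 over 6 tests; 4 lists against 2 cannot go below 0.133). Scaled to equal list totals the difference was -4805 bp, so its direction depends on the scale.

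H3K4me2 regions covered 9800 and 14650 bp of the alpha part at E11.5 and 12625 and 21175 bp at E14.5. At E17.5 they covered 25325 and 20725 bp in the frontal lists and 23175 and 25625 bp in the occipital lists. The groups of E17.5 and E11.5 did not overlap, with a mean difference of 11488 bp (exact permutation, p = 0.133, adjusted p = 0.2), the smallest p that this design allows. Scaled to the list totals the difference was 7360 bp. The replicates of E14.5 were far apart, replicate 1 near the E11.5 lists and replicate 2 near the E17.5 lists. Over the genome these 2 lists covered 65.3 and 95.2 Mb, and the part of list size in their distance was not tested.

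The regions of a mark that touch or overlap in any of its 8 lists were merged into loci. The interval held 45 H3K27ac loci, of which 35 had a region in at least 2 lists and were tested, and 46 H3K4me2 loci, of which 37 were tested. The alpha part held 10 H3K27ac loci (8 tested) and 11 H3K4me2 loci (7 tested), and 9 of each touched a locus of the other mark. Most of its covered length lay in a few loci with a region in all 8 lists of a mark, 4 for H3K27ac and 4 for H3K4me2, all in the right-hand part of the subcluster.

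The longest alpha locus of H3K4me2, chr18:37301351-37311275, covered 2500 and 2925 bp in the E11.5 lists. It covered 3325 and 8100 bp at E14.5, 8100 and 8325 bp in the frontal and 9175 and 9925 bp in the occipital lists. It was longer at E17.5 than at E11.5 in every list, with a log2 change of 1.64 (SE 0.33, limma with Benjamini-Hochberg adjustment over all loci, adjusted p = 0.0204). The log2 scale here is that of covered bp plus 200, on which the median change over all H3K4me2 loci was 0.37. The call was lost when either E11.5 list or any of the 4 E17.5 lists was left out (adjusted p = 0.0611 to 0.131 without them), with log2 changes from 1.53 to 1.75.

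The H3K27ac locus at the same place, chr18:37301301-37306350, covered 1900 and 1800 bp at E11.5 and 3750 and 3700 bp at E14.5. It covered 2875, 2225, 2625 and 2325 bp in the frontal and occipital lists. Its E14.5 values were the highest of the 8, and it was longer at E14.5 than at E11.5 by 0.94 on the log2 scale (SE 0.17, limma, adjusted p = 0.0322), where the median change of all H3K27ac loci was 0.26. Leaving out any E11.5 or E14.5 list, or occipital replicate 2, ended that call (adjusted p = 0.0502 to 0.148), and so did scaling to the list totals (log2 change 0.23, adjusted p = 0.594). Its E17.5 change from E11.5 was 0.40 (SE 0.15, limma, adjusted p = 0.131), and from E14.5 it was -0.54 (SE 0.15, limma, adjusted p = 0.149). The courses of the marks at this place were not compared by a test.

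The other long alpha loci varied less. At chr18:37335226-37340575, H3K27ac covered 4250 and 2725 bp at E11.5, 4800 and 5025 bp at E14.5, 5150 and 5350 bp in the frontal and 5175 and 4075 bp in the occipital lists. The H3K4me2 locus there, chr18:37335176-37340525, covered 2900 to 4950 bp over its 8 lists. At chr18:37375451-37378425, the rightmost H3K27ac locus of the alpha part, the 8 lists covered 2150 to 2900 bp, and the H3K4me2 locus that touches it covered 2325 to 2750 bp. Neither place passed the test in any contrast for either mark.

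Most loci on the left of the alpha part had no region at E11.5, which gave only 2 of the 8 lists of each mark. These lists were also smaller, with 74.2 Mb against 155 Mb at E17.5 for H3K27ac and 90.5 Mb against 117 Mb for H3K4me2. The share of all loci without a region at E11.5 was not computed. The H3K4me2 locus chr18:37179326-37182500 covered 0 and 1250 bp at E11.5, 1050 and 1700 bp at E14.5, 3175 and 1650 bp in the frontal and 2975 and 2725 bp in the occipital lists. The H3K27ac locus within it, chr18:37179576-37180525, was called in 4 lists, none of them from E11.5, with 500 to 900 bp each. The H3K4me2 locus chr18:37157176-37158150 had no region in either E11.5 list or in E14.5 replicate 1, and covered 550 to 925 bp in the other lists. None of these passed the test, and both E11.5 lists of H3K27ac had no region to the left of chr18:37248851 in the alpha part. Apart from 500 bp in occipital replicate 2, the H3K27ac regions there were from E14.5 replicate 1, frontal replicate 2 and occipital replicate 1. The median region widths of these 3 lists over the genome were 1575, 1475 and 1525 bp, against 1150, 1150 and 1175 bp in their partner lists. The part of this list property was not tested.

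The beta part held almost no called region. No H3K27ac list from E11.5 or E14.5 had one there. At E17.5, frontal replicate 2 covered 675 bp in 1 region and occipital replicate 1 covered 1300 bp in 2 regions, whereas the other replicate of each area had none. These regions form 2 loci, and the one called in both of these lists, chr18:37644526-37645350, covered 675 and 800 bp. The mean difference between E17.5 and E11.5 was 494 bp (exact permutation, p = 0.8, adjusted p = 0.8), or 391 bp when scaled to the list totals.

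H3K4me2 regions covered 675 and 0 bp of the beta part at E11.5, and 500 and 0 bp at E14.5. At E17.5 they covered 5150 and 2050 bp in the frontal lists and 850 and 1900 bp in the occipital lists. All E17.5 values exceeded both E11.5 values, by 2150 bp on average (exact permutation, p = 0.133, adjusted p = 0.2) and by 1818 bp when scaled to the list totals. When each list was cut to the same number of its widest regions this difference was -43.8 bp. The cut kept 32366 regions per list, of 33865 and 51424 at E11.5 and of 43039 to 76833 at E17.5. The part of this unequal cut in the value was not tested. Frontal replicate 1 had 6 of the 14 H3K4me2 regions of the beta part.

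The H3K4me2 regions of the beta part made up 6 loci, and 4 of these touched no H3K27ac region. The longest, chr18:37424076-37425400, covered 675 and 0 bp at E11.5, 500 and 0 bp at E14.5, 1175 and 875 bp in the frontal and 850 and 1325 bp in the occipital lists. It did not pass the test in any contrast. The locus chr18:37637501-37638450 was called in frontal replicate 1 (950 bp) and occipital replicate 2 (575 bp) only.

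A pair of beta loci was called in both frontal H3K4me2 lists and in no other. The locus chr18:37479951-37480800 covered 850 and 500 bp there, and chr18:37644501-37645550 covered 1050 and 675 bp. Since a locus had to have a region in at least 2 lists, these passed that filter only through the frontal lists, so a difference was built in and no fold is given against lists at 0. In limma their adjusted p was 0.00210 and 0.00117 for frontal against occipital, 0.0135 and 0.00762 for E17.5 against E11.5, and 0.0192 and 0.0111 for E17.5 against E14.5. Leaving out either occipital list ended the calls between the areas (adjusted p = 0.0888 to 0.201) and the stage calls (up to 0.102 against E11.5 and 0.167 against E14.5), as did leaving out E11.5 replicate 1 (up to 0.108) or, for the latter, either E14.5 list. Without either frontal list these loci were not tested. H3K27ac regions touched both places, in occipital replicate 1 with 500 bp at chr18:37480076-37480575 and with 800 bp at chr18:37644526-37645350, the latter also in frontal replicate 2.

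The gamma part carried most of the covered length of the interval, and its regions fell into a left end with little, a row of short loci and a right end with long ones. This division was made after the values were seen, so its values are given without a test. To the left of chr18:37664826 there were 2 loci of each mark, called in no list from E11.5 or E14.5. Then came the 137.15 kb without any region, although this stretch lies within the gamma bound.

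From chr18:37801976 to chr18:37928900, over 126.925 kb, there followed a row of 23 loci (both marks merged) with a median length of 1525 bp. Their centres were 5200 bp apart in the median, with a range of 1563 to 12800 bp. In this row 21 H3K27ac loci and 22 H3K4me2 loci were found. The next locus began 16650 bp further on, and from chr18:37945551 to the end of the interval 7 merged loci filled the last 64.45 kb.

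**Figure D3:**
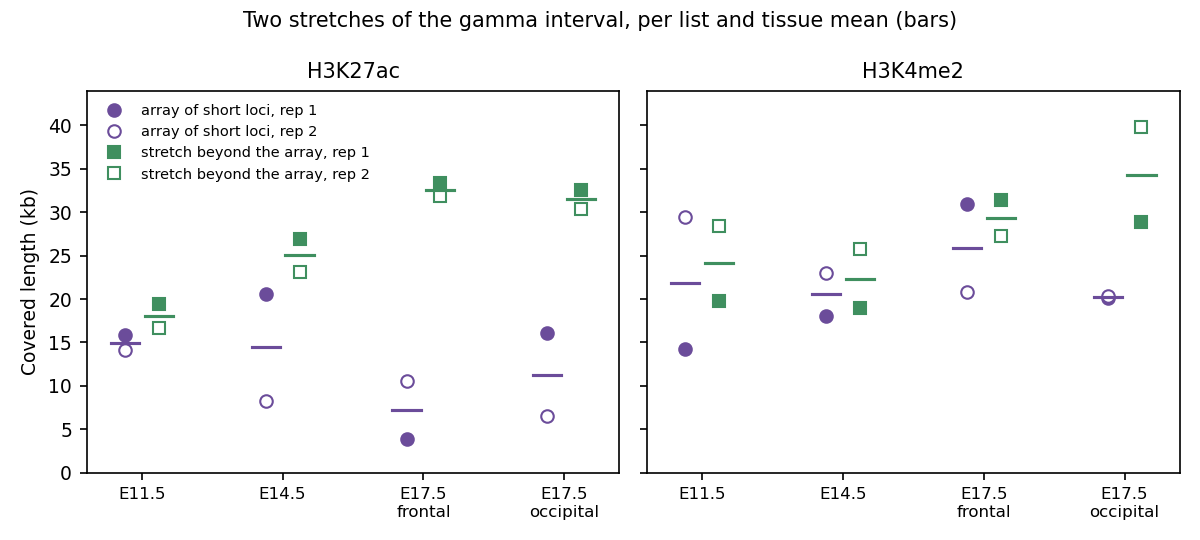
Covered length in kb per list in the row of short gamma loci and in the stretch beyond it, by tissue and mark, with 1 point per list. For H3K27ac the E17.5 points are the highest in the stretch beyond the row, while in the row itself the lists of each tissue at E14.5 and E17.5 lie far apart.

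In the row, H3K27ac regions covered 15850 and 14125 bp at E11.5 with 15 and 14 regions. At E14.5 they covered 20600 and 8300 bp with 18 and 8 regions. In the frontal lists they covered 3850 and 10550 bp with 4 and 11 regions, and in the occipital lists 16100 and 6500 bp with 14 and 5 regions. The replicates of E14.5 (14450 ± 8697 bp), frontal (7200 ± 4738 bp) and occipital cortex (11300 ± 6788 bp) lay far apart. In bp, the values of E17.5, 3850 to 16100 bp, reached beyond those of E11.5 on both sides. Per Mb of list the row took 186 and 224 bp at E11.5, and 143 and 77.5 bp at E14.5. At E17.5 it took 22.7 and 65.8 bp in the frontal and 99.7 and 50.3 bp in the occipital lists. Both E11.5 values lay above all later ones on that scale, which was not tested. The lists with few regions here, E14.5 replicate 2, frontal replicate 1 and occipital replicate 2, had median region widths over the whole genome of 1150, 1150 and 1175 bp, against 1575, 1475 and 1525 bp in their partner lists. At E11.5 the replicate with the smaller median width, 975 against 1250 bp, had 14 regions against 15. The part of this list property in the count of regions was not tested.

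Over 8 lists, H3K4me2 covered 22144 ± 5615 bp of the same row and H3K27ac 11984 ± 5639 bp, a like spread around a higher mean. The H3K4me2 regions covered 14225 and 29475 bp at E11.5, and 18075 and 23050 bp at E14.5. They covered 30975 and 20825 bp in the frontal and 20150 and 20375 bp in the occipital lists. The counts ran from 12 regions in E11.5 replicate 1 to 21 in E11.5 replicate 2. The replicates of E11.5 therefore held the lowest value and nearly the highest.

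Which short loci were called shifted from list to list. Of the 21 H3K27ac loci of the row, 4 had a region in all 8 lists, as had 23474 of all 137962 H3K27ac loci. Both E11.5 lists had a region in 12, both E14.5 lists in 8, both frontal lists in 4 and both occipital lists in 5. Of the 22 H3K4me2 loci, 7 were in all 8 lists, as were 23838 of all 91956 H3K4me2 loci. In both lists of E11.5, E14.5, the frontal and the occipital cortex there were 12, 14, 16 and 10. The shares of all loci with a region in both lists of a tissue were not computed. A locus such as the H3K27ac one at chr18:37828301-37829225 had 750 and 500 bp at E11.5 and 925 bp in E14.5 replicate 1, and was called in no other list. At the H3K4me2 locus of the same place, chr18:37828176-37829525, all 8 lists had a region, of 700 to 1300 bp.

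**Figure D4:**
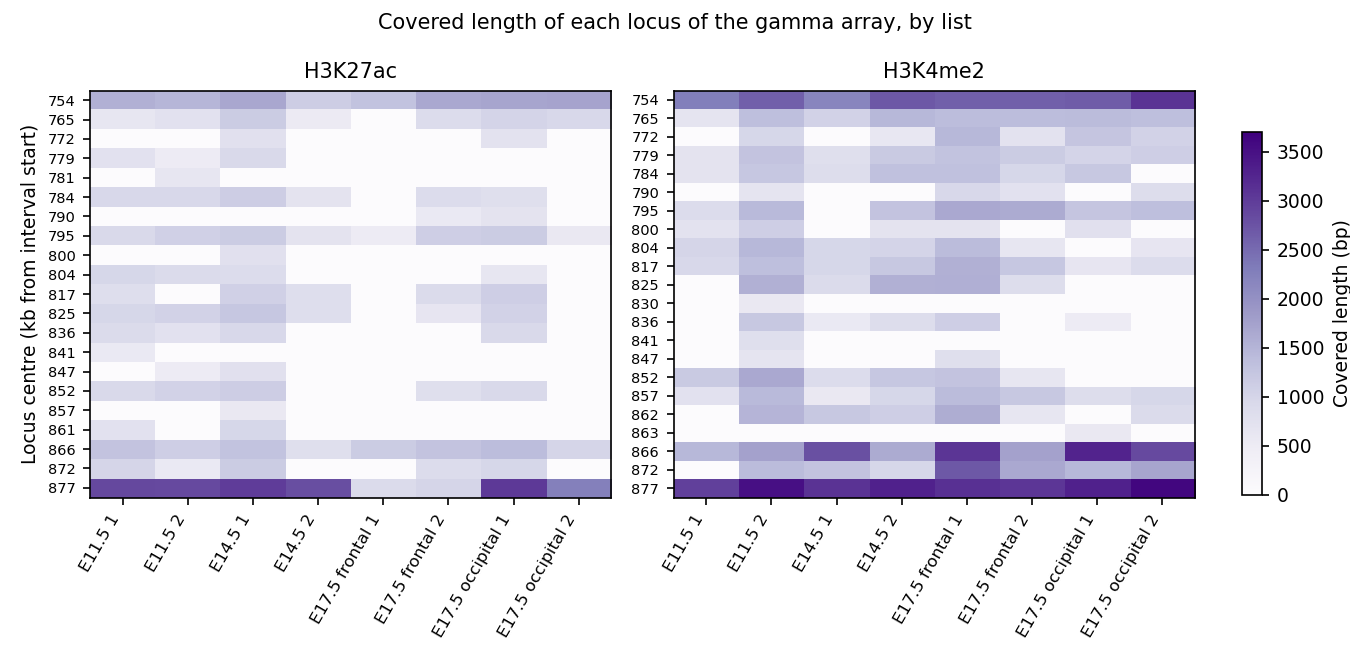
Covered length of each locus in the row of short gamma loci by list, for H3K27ac and H3K4me2, as shades from none to the longest value. Rows are loci in their order along the chromosome and columns are lists grouped by tissue. The first and the last locus are filled in every list of both marks, and gaps in between are more common for H3K27ac.

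The last locus of the row stood out from its neighbours by its length and by its difference between areas. At chr18:37925301-37928325, H3K27ac covered 2875 and 2850 bp at E11.5 and 3000 and 2800 bp at E14.5. It covered only 900 and 1000 bp in the frontal lists, against 3025 and 2250 bp in the occipital lists. The frontal values lay below those of all 6 other lists. H3K27ac was shorter in frontal than in occipital cortex by a log2 change of -1.29 (SE 0.19, limma, adjusted p = 0.0400), where 2.31% of all loci were called in either direction, 1.59% longer and 0.721% shorter. It was shorter at E17.5 than at E11.5 by -0.77 (SE 0.16, limma, adjusted p = 0.0279), and this difference came with the frontal values, the mean of E17.5 being 950 ± 70.7 bp (n = 2) in frontal and 2638 ± 548 bp (n = 2) in occipital cortex.

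H3K4me2 values at this place lay close together. The locus chr18:37925176-37928900 covered 2950 and 3500 bp at E11.5, 3100 and 3300 bp at E14.5, 3125 and 3050 bp in the frontal and 3300 and 3625 bp in the occipital lists. Its frontal minus occipital log2 change was -0.15 (SE 0.11, limma, adjusted p = 0.658). The difference between the marks was not tested. The H3K27ac call between the areas was lost when any 1 of the 8 lists was left out (adjusted p = 0.0669 to 0.236), with log2 changes from -1.49 to -1.09, and under every other alternative run but the equal number of widest regions (adjusted p = 0.0171 there and 0.0769 to 1.0 in the others). The stage call was lost without either E11.5 list or either frontal list (adjusted p = 0.0534 to 0.139).

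A short H3K4me2 locus of the row also differed between the areas. At chr18:37901276-37902925 it covered 1175 and 1650 bp at E11.5, 875 and 1225 bp at E14.5 and 1275 and 625 bp in the frontal lists, and no region was called in either occipital list. Its change from E11.5 to E17.5 was -1.76 (SE 0.38, limma, adjusted p = 0.0255), and it passed the test between frontal and occipital cortex (adjusted p = 0.0209, no fold against lists at 0). The H3K27ac locus there, chr18:37901301-37902450, had a region in 1 of 2 lists of each E17.5 area (800 and 925 bp), in both E11.5 lists and in E14.5 replicate 1. The call between the areas was lost without frontal replicate 1 or either occipital list (adjusted p = 0.0974 to 0.283), with the replicate number as a block (0.0526), and under 3 further alternatives (up to 0.649). The stage call was lost without either E11.5 list or either occipital list (adjusted p = 0.0692 to 0.112) and with an equal number of widest regions (0.119).

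Beyond the row, covered H3K27ac length in bp was greater at later stages, but not per Mb of list. It was 19475 and 16675 bp at E11.5, 26900 and 23125 bp at E14.5, 33349 and 31850 bp in the frontal and 32525 and 30400 bp in the occipital lists. The ranges of the 3 stages did not overlap, and the number of regions stayed between 7 and 10. Per Mb of list the stretch took 228 and 264 bp at E11.5, 186 and 216 bp at E14.5, and 197 to 235 bp at E17.5, where the stages overlapped. H3K4me2 covered 19800 and 28450 bp at E11.5, 19000 and 25700 bp at E14.5, 31450 and 27275 bp in the frontal and 28900 and 39750 bp in the occipital lists, where the stages overlapped.

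The longest locus of each mark in the whole interval lies in this stretch. H3K27ac at chr18:37978551-37989975 covered 5500 and 4700 bp at E11.5, 7775 and 6150 bp at E14.5, 11250 and 9575 bp in the frontal and 10625 and 8925 bp in the occipital lists. The 3 stages did not overlap. The change from E11.5 to E17.5 was 0.96 on the log2 scale (SE 0.17, limma, adjusted p = 0.0169), close to the median of 1.01 over all H3K27ac loci, that is -0.05 relative to it. Scaled to the list totals the change was -0.09 (adjusted p = 0.592), and without E11.5 replicate 2 the call was lost (adjusted p = 0.0998).

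A pair of its neighbours was also longer at E17.5 in bp. At chr18:37973501-37977800, H3K27ac covered 1725 and 1950 bp at E11.5, 2875 and 2650 bp at E14.5, 3675 and 2925 bp in the frontal and 3750 and 4100 bp in the occipital lists. Its change to E17.5 was 0.90 (SE 0.15, limma, adjusted p = 0.0130), which is -0.11 when set against the median of all loci and -0.10 when scaled to the list totals. At chr18:37957926-37963025 it covered 1275 and 975 bp at E11.5, 2125 and 1525 bp at E14.5, 2225 and 3825 bp in the frontal and 2325 and 3525 bp in the occipital lists. Its change was 1.23 (SE 0.30, limma, adjusted p = 0.0425), which is 0.23 above the median of all loci. The first of these calls was lost without either E11.5 list (adjusted p = 0.0527 and 0.0557), and the second was lost in 7 of 8 cases, all but the one without frontal replicate 1 (adjusted p up to 0.223) and when scaled to the list totals (log2 change 0.28, adjusted p = 0.516).

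In H3K4me2, 1 locus touched 4 of the H3K27ac loci of this stretch. It ran from 37959101 to 37989925 and covered 14975 and 20950 bp at E11.5, 16300 and 21575 bp at E14.5, 25450 and 23150 bp in the frontal and 24375 and 30825 bp in the occipital lists. All E17.5 values exceeded those of the earlier stages, but no contrast of this locus passed the test. The H3K27ac locus chr18:37964501-37969325 within it covered 3125 to 4825 bp over the 8 lists.

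A short H3K27ac locus, chr18:37991901-37993226, was called only in the frontal lists, with 1150 and 925 bp, and touched no H3K4me2 locus. It passed the filter through these 2 lists alone, so a difference was built in. The adjusted p in limma was 0.0400 for frontal against occipital and 0.0350 for E17.5 against E11.5. The first was lost without any 1 of the 6 lists of the other tissues (adjusted p = 0.0643 to 0.216), and the second without any E11.5 or E14.5 list (adjusted p = 0.0613 to 0.241).

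The last long loci of the interval had a region in all 8 lists of both marks. At chr18:37998701-38004800, H3K27ac covered 4175 and 3550 bp at E11.5, 5575 and 4375 bp at E14.5, 5250 and 4300 bp in the frontal and 6000 and 5725 bp in the occipital lists. The H3K4me2 locus chr18:37999051-38004025 covered 2600 and 4075 bp, 2700 and 2800 bp, 3475 and 3075 bp, and 3300 and 4975 bp in the same order of tissues. At the right edge, the H3K27ac locus chr18:38008551-38013600 covered 1000 bp in E11.5 replicate 2 and 3750 to 4950 bp in the other lists, and the H3K4me2 locus chr18:38008576-38013475 covered 1400 to 4900 bp, both counted whole although they reach past the interval. No contrast passed the test at either place.

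Summed over the gamma part, H3K27ac covered 35325 and 30800 bp at E11.5, 47500 and 31425 bp at E14.5, 37199 and 42400 bp in the frontal and 49725 and 36900 bp in the occipital lists. The E17.5 lists lay above both E11.5 lists by 8494 bp on average (exact permutation, p = 0.133, adjusted p = 0.2), but scaled to the list totals the difference was -23184 bp. H3K4me2 covered 34025 and 57925 bp at E11.5, 37075 and 48750 bp at E14.5, 64325 and 48850 bp in the frontal and 49750 and 60750 bp in the occipital lists. Here the groups overlapped, with a mean difference of 9944 bp (exact permutation, p = 0.4, adjusted p = 0.48). It was -2006 bp without E11.5 replicate 1 and 21894 bp without E11.5 replicate 2, and scaled to the list totals it was -1187 bp, so its sign depends on both the E11.5 replicates and the scale.

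Over all tested loci of the interval, few changed with stage, and the shares were near or below those over the genome. Of 35 H3K27ac loci, 4 were longer and 1 was shorter at E17.5 than at E11.5, where 19.0% of all 85290 loci were called in either direction (14934 longer, 1248 shorter). Their median log2 change was 0.36, against 1.01 over all loci. When covered length was scaled to the list totals, 1 was longer and 7 were shorter, with a median of -0.60 against 0.62 over all loci, of which 11380 were longer and 12375 shorter on that scale. By subcluster the median was 0.45 over the 8 alpha loci and 0.03 over the 26 gamma loci. Of the alpha loci, 3 had no region at E11.5, which fixed the sign of their change. Of the gamma loci, 3 had none at E11.5 and 3 had none at E17.5. Of the 35 loci, 4 had regions in E17.5 lists alone, among them the single beta locus tested and, of the 4 longer ones, the frontal locus chr18:37991901-37993226, so their positive changes were built in.

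**Figure D5:**
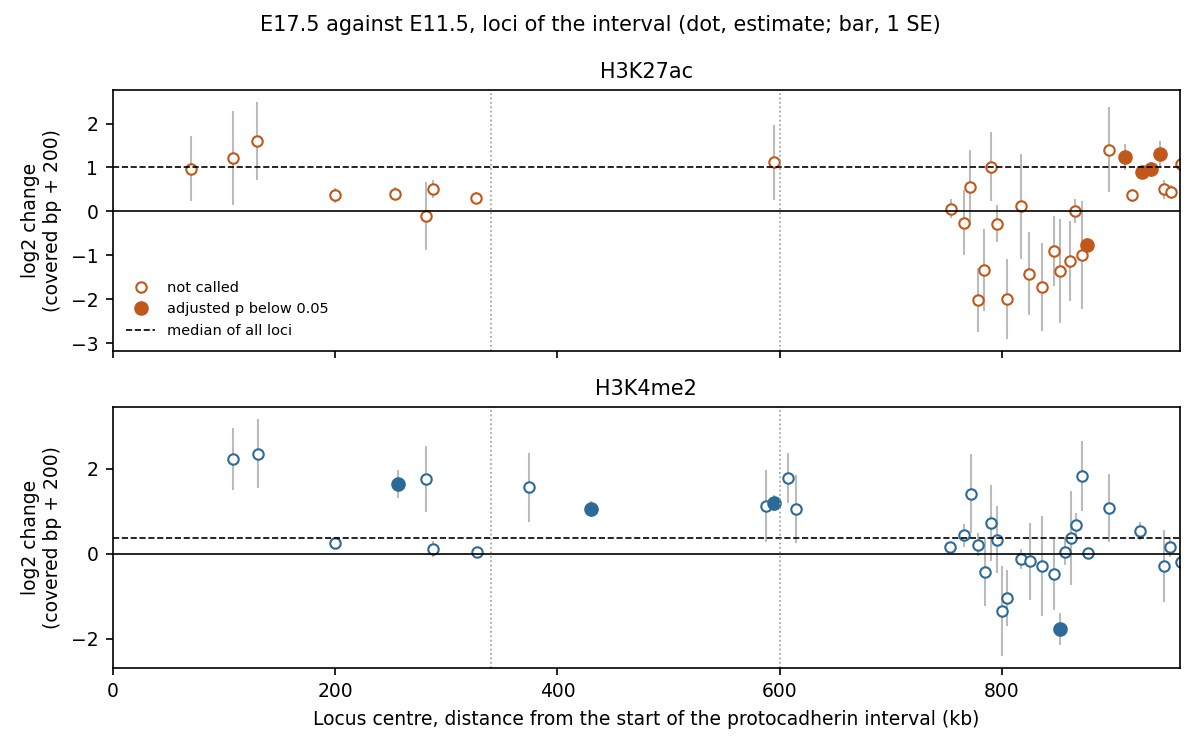
Log2 change in covered length from E11.5 to E17.5 of each tested locus, against the distance in kb from the start of the interval, for H3K27ac and H3K4me2. Filled points passed an adjusted p of 0.05 in limma, open points did not, and the dashed line is the median over all loci of the mark. Most H3K27ac points lie below that line, and the called gamma points with higher values lie near the right end.

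Between E14.5 and E11.5, 1 H3K27ac locus, the alpha one at chr18:37301301-37306350, was longer, where 7.48% of all loci were called. The members' median log2 change was 0.15, against 0.26 over all loci, with 0.72 over the alpha loci and 0.03 over the gamma loci. Of the 8 alpha loci, 3 had no region at E11.5, and 1 had none at E14.5. Among the 26 gamma loci these numbers were 3 and 2. Between E17.5 and E14.5 limma called none, where 1.13% of all loci were called, and 4 of the 35 had an unadjusted p under 0.05, as had 13676 of the 85290. Between the areas 1 was longer and 1 shorter in frontal cortex, both described above.

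Of 37 H3K4me2 loci, 3 were longer and 1 was shorter at E17.5 than at E11.5, where 22.7% of all 63453 loci were called (19.5% longer, 3.13% shorter). The median log2 change was 0.33, against 0.37 over all loci. Of the 3 longer loci, 2 are the beta pair called only in the frontal lists, whose difference was built in. In all, 6 of the 37 loci had regions in E17.5 lists alone, 3 of them among the 4 beta loci, for which no median is given. The median was 1.64 over the 7 alpha loci, 1 of which had no region at E11.5, and 0.15 over the 26 gamma loci. None was called between E14.5 and E11.5, where 3.94% of all loci were called and 0 of the 37 had an unadjusted p under 0.05, against 8.52% of all loci. Between E17.5 and E14.5, the pair of beta loci named above was longer (2 of 37), a difference built in by the filter, where 13.6% of all loci were called, with a median of 0.43 against 0.47.

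In the contrast of areas, the H3K4me2 loci of the interval and those of the whole genome had medians of opposite sign on the unscaled lengths. Over all loci 9.93% were called, 0.698% longer and 9.23% shorter in frontal than in occipital cortex, and the median log2 change was -0.27. In the interval 3 loci were longer in frontal cortex and none was shorter, with a median of 0.10, and 32 of the 37 loci lay above the median of all loci. Scaled to the list totals, both medians were positive, 0.42 in the interval and 0.06 over all loci. These 3 are the pair of beta loci called only in the frontal lists and the gamma locus chr18:37901276-37902925 without an occipital region, and the difference of the pair was built in. The occipital H3K4me2 lists covered 138 ± 34.9 Mb in all (n = 2) and the frontal lists 97.4 ± 10.4 Mb. Within the interval they covered 81025 ± 10253 bp and 83213 ± 16387 bp.

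Per Mb of list, the interval therefore took 599 ± 77.6 bp in the occipital and 850 ± 77.1 bp in the frontal H3K4me2 lists (n = 2 each). At E11.5 and E14.5 this was 646 ± 5.75 and 751 ± 24.1 bp. For H3K27ac the E11.5 lists gave 582 ± 65.3 bp and the E14.5 lists 433 ± 6.44 bp, followed by the frontal lists with 334 ± 47.9 bp and the occipital ones with 396 ± 33.9 bp. Both E11.5 values of H3K27ac lay above all later ones. These shares were not tested.

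Within the interval, most loci of each mark touched a locus of the other. Of the 45 H3K27ac loci, 41 touched an H3K4me2 locus, and of the 46 H3K4me2 loci 38 touched an H3K27ac locus. No H3K4me2 locus with a region in all 8 lists lacked H3K27ac in every list. A locus joins the regions of 8 lists, so touching loci need not overlap in any sample. The shares of touching loci over the genome were not computed. A region in all 8 lists of a mark was found at 15 of the 35 tested H3K27ac loci, where 27.5% of all loci had one, and at 14 of the 37 H3K4me2 loci, where 37.6% had one. The H3K27ac ones were 4 in the alpha and 11 in the gamma part, with lengths of 1200 to 11425 bp, and the H3K4me2 ones were 4 and 10, with 1350 to 30825 bp. None lay in the beta part.

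Within pairs of a tissue and replicate, 80.5 ± 10.5% of the H3K27ac length in the interval was also covered by H3K4me2 (n = 8 pairs), against 52.9 ± 13.0% over the whole lists. The reverse share was 61.4 ± 13.8%, against 65.3 ± 12.9% over the whole lists. In the beta part it was 0 in 5 of the 6 pairs with an H3K4me2 region. The share of H3K4me2 length with H3K27ac was 65.1 ± 18.3% at E11.5 (n = 2) and 55.6 ± 9.87% at E17.5 (n = 4), a difference of -9.48 points (exact permutation, p = 0.4), which was 3.49 points without E11.5 replicate 1.

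H3K4me2 covered more of each subcluster than H3K27ac on average, but the differences did not pass after adjustment. In the alpha part the difference within pairs was 5759 ± 5717 bp and positive in 6 of 8 pairs (exact permutation, p = 0.0312, adjusted p = 0.0859 over 3 tests). In the beta part it was 1144 ± 1791 bp and positive in 5 of 8 pairs (exact permutation, p = 0.0625, adjusted p = 0.0859). In the gamma part it was 11272 ± 14521 bp and positive in 6 of 8 pairs (exact permutation, p = 0.0859, adjusted p = 0.0859).

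The overlap of 2 lists of a mark within the interval, as covered length shared over covered length in either, averaged 0.676 ± 0.0457 between replicates (n = 4 pairs) and 0.614 ± 0.0708 between different tissues (24 pairs) for H3K27ac. For H3K4me2 it was 0.682 ± 0.0701 and 0.613 ± 0.0974. Pairs of different tissues reached 0.732 and 0.783, so the ranges overlapped, and since pairs share lists no test was made.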

How the data were processed

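ChIP-seq region lists of mouse embryonic cortex were used as deposited by the authors. Each list has 3 columns (chromosome, start, end) and no count, signal or score, so its unit is a called interval in bp. The submitters' processing notes name Bowtie 0.12.9, hg19 and mm9, with no role for each. The region caller and its threshold were not given in the sources used here. Starts lie on a 25-bp grid and neighbouring regions are at least 1025 bp apart, as tested on the files. Positions are written 1-based.

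Covered bp were summed per interval, clipped at its bounds. Loci were tested on log2(covered bp + 200) with limma 3.58.1 (lmFit, eBayes with a trend, under R 4.3.3). Each mark had its own model, with tissue means over its 8 lists, and all 85290 (H3K27ac) or 63453 (H3K4me2) loci called in at least 2 lists entered. Calls are at an adjusted p under 0.05, and E17.5 is the mean of its frontal and occipital tissues. The p-values test a change against 0, not against the median locus. Sums per subcluster were compared by exact two-sided permutation over lists (15 divisions of 4 against 2, 256 sign changes of 8). The scripts were tested on simulated data.

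The interval, the loci and the tests were chosen with earlier results of these data known. Named loci are those past the threshold, the 3 longest of each mark and subcluster and the 5 longest with a region in all 8 lists. Other loci, and the division of the gamma part, were chosen after their values were seen. The RefSeq table at hand is of GRCm38.p6 and was used for names, numbers and order of genes only. The rest was computed in Python 3.11.15 (pandas 2.3.3, numpy 2.4.6, matplotlib 3.10.9, scipy 1.17.1). The alternatives tried are in the closing section. The rhesus and input samples were not used here.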

Additional observations from a re-analysis of the deposited data

How the results depend on the processing

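The read depth is unknown and limits what any list can show, and a tissue has 2 lists. For every locus call there was at least 1 list whose removal ended it, while most calls held without some other list. Over 98 recomputed values, the differences in percent covered between subclusters and against the flanks kept their sign and their side of the threshold under every alternative run. Moving the beta to gamma bound to position 37733400, into the first stretch of over 100 kb without a region, was added after seeing the data and changed no direction or call. Of the 206 values of single loci, 102 kept their call, 102 lost it with the same sign, and 2 reversed.

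Scaled to the list total, the E17.5 minus E11.5 difference in H3K27ac was -4805 bp in the alpha and -23184 bp in the gamma part, and in H3K4me2 -1187 bp in the gamma part. The H3K27ac loci 37973501 to 37977800 and 37978551 to 37989975 changed by -0.099 and -0.087 (log2) from E11.5 to E17.5 on that scale. With each list cut to its widest regions, equal in number, the H3K4me2 beta difference was -43.8 bp. Scaling uses the list's own total as its measure, and the cause of the other reversal was not tested. Leaving out 1 list gave stage differences of 4046 to 5921 bp (alpha), 225 to 658 bp (beta) and 5771 to 10756 bp (gamma) for H3K27ac. For H3K4me2 these were 9063 to 13913 bp, 1263 to 2696 bp and -2006 to 21894 bp, the last negative without E11.5 replicate 1. The share of H3K4me2 with H3K27ac ranged from -22.5 to 3.49 points, positive only without E11.5 replicate 1.

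The H3K4me2 minus H3K27ac difference passed the threshold (exact permutation, adjusted p given) with an equal number of regions in the alpha (6672 bp, 0.0352) and gamma part (14953 bp, 0.0234) and scaled to the list totals (9263 bp and 20875 bp, 0.0234 each). With the bounds moved down by 10 kb it passed in the alpha (5759 bp) and beta part (1113 bp, 0.0469 each), and without the pairing of marks (no replicate block) in the alpha (5759 bp) and gamma part (11272 bp, 0.0459 each). The adjusted p ranged over all alternatives from 0.0234 to 0.172 (alpha and gamma) and from 0.0469 to 0.25 (beta). Leaving out 1 pair gave 4525 to 7018 bp, 571 to 1371 bp and 9007 to 14372 bp, none passing.

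Counts of called H3K27ac loci between E17.5 and E11.5 were 3 with a pseudocount of 1000 bp and with the replicate block, 2 with loci called in any list, 8 when scaled and 0 to 4 with 1 list left out. Between E14.5 and E11.5 they were 0 with the larger pseudocount, with any list and when scaled, 2 with an equal number of regions, and 0 to 1 with 1 list left out. Between E17.5 and E14.5 they were 2 with an equal number of regions and 0 without any 1 list. Between the areas they were 1 with an equal number of regions, and 0 with the larger pseudocount, with any list, with at least 3 lists, with the replicate block, when scaled, and with any 1 list left out. For H3K4me2 between E17.5 and E11.5 they were 2 with loci in any list or in at least 3 lists, 1 with an equal number of regions and 0 to 5 with 1 list left out. Between E17.5 and E14.5 they were 0 with the larger pseudocount, any list, at least 3 lists or an equal number of regions, and 0 to 4 with 1 list left out. Between the areas they were 0 with at least 3 lists and 0 to 4 with 1 list left out, and between E14.5 and E11.5 0 to 2 with 1 list left out. Those of loci in at least 3 lists drop the loci called only in the frontal lists by construction.

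Replicate numbers did not pair the samples of different tissues. Deviations of same-numbered lists correlated at -0.204 to 0.0986 (H3K27ac) and -0.0432 to 0.242 (H3K4me2) across loci. Each tissue has both numbers, so a block cannot change a difference of means; in limma the block ended 4 calls at 3 of the H3K27ac loci and that of the H3K4me2 locus 37901276 to 37902925 between the areas (adjusted p = 0.0526).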
